A study of Homo sapiens with 9 samples.

Results

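The proprotein convertases PCSK1, PCSK2, PCSK5, PCSK6, PCSK7 and FURIN, the convertase inhibitor PCSK1N and the granins CHGA, CHGB and SCG2 were measured in HEK293 cells carrying shRNAs against SmcHD1. The members are every probe whose transcript accession belongs to these 10 genes, 14 probes of the 42405 on the array, and no threshold on a value decided which probes entered. The genes themselves were chosen with the differences from the control known, in which PCSK2 stood among the largest decreases, so the comparisons with the control, calls included, are a description of these genes from which nothing is inferred, and no p-value is given for them. HEK293 is an established line from human embryonic kidney. The 3 groups were stable populations infected with a retroviral vector that also encodes GFP and selected with puromycin, KD3 with shRNA 3 and KD4 with shRNA 4, both against SmcHD1, and CTL with the control shRNA NC5, with no further treatment and 3 arrays each. The methods call these biological triplicates and do not say whether they came from separate infections, so the spread between arrays may be partly technical.

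Proprotein convertases are serine proteases that cut inactive precursors at pairs of basic residues. PCSK1 and PCSK2 work inside the dense-core granules of endocrine and neuronal cells, where they release peptide hormones from prohormones, while FURIN, PCSK5, PCSK6 and PCSK7 act mostly in the trans-Golgi network and at the cell surface of many tissues. Granins are acidic proteins that fill the granules and help them form, and PCSK1N encodes proSAAS, a granin-like inhibitor of PCSK1. HEK293 cells are not an endocrine line but express many neuronal genes.

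Labelled RNA was hybridized to Agilent arrays read in a single color, and each value below is the scanner's processed signal, quantile normalized over the 9 arrays, on the log2 scale. The median processed signal of an array was 119.6 to 181.4 before normalization, 75.13% to 79.76% of probes were well above background, no spot was saturated, and replicate arrays correlated at 0.995 or more. The arrays lay on 2 slides, each with arrays of all 3 groups. All 3 probes of SMCHD1, the target of both shRNAs, were lower in the knock-downs, by -0.97 to -1.03 in KD3 and -1.51 to -1.54 in KD4 on the log2 scale (adjusted p from limma at most 0.00214 in KD3 and 0.000186 in KD4). All 10 genes of a list of HEK293 markers were well above background on every array, as were all 6 neuroendocrine markers of a second list (SYP, ENO2, NCAM1, INSM1, DDC and UCHL1), while of 5 genes that mark sympathetic neuroblastoma cells, DBH and PHOX2A were well above background on none and GATA3, TH and HAND2 on all.

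A probe is called here when its fold difference is at least 1.8 and its adjusted p from limma (Benjamini-Hochberg over 32276 tested probes) is under 0.05, and a gene counts once when any of its probes is called. Probes entered the test when all arrays of some group had them well above background. That held for 13 of the 14 member probes, and all 10 genes had a tested probe. The remaining probe, A_33_P3358735 for a PCSK5 transcript, reached that level on 0 of the 9 arrays.

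The promoters of the regulated convertases and granins are known for cAMP response elements, so the upstream sequence of 3 members is printed to show whether the annotated starts carry that motif and how many CpG dinucleotides, the substrate of DNA methylation, lie there. The sequences are the 250 bases before an annotated transcription start, read 5′ to 3′ on the gene's strand, from RefSeq on GRCh38.p14. Capitals mark the core TGACG or its reverse complement CGTCA, and the full palindromic element TGACGTCA, which holds both overlapping cores, shows as 8 capitals in a row.
PCSK2, upstream of a start at chr20:17225857-17226106, plus strand: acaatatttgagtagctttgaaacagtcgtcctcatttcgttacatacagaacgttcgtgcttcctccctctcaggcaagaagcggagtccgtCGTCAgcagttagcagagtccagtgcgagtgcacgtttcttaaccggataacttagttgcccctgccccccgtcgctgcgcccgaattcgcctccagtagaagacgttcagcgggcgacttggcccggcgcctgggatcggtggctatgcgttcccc
PCSK2, upstream of a second start at chr20:17226790-17227039, plus strand: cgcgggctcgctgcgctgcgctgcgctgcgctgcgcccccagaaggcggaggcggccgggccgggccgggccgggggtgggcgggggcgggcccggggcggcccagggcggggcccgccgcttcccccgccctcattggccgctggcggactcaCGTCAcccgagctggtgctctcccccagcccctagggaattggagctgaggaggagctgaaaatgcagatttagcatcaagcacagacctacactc
PCSK1, chr5:96433249-96433498, minus strand: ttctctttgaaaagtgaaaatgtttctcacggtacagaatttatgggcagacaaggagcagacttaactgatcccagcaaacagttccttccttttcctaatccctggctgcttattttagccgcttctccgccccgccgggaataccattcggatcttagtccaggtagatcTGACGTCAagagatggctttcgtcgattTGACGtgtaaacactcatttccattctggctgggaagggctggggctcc
CHGA, chr14:92922900-92923149, plus strand: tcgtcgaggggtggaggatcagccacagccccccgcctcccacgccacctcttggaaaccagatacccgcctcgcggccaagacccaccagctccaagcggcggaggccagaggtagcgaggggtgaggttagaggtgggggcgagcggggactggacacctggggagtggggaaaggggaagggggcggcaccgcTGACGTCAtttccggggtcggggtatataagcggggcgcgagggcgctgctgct

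The full element was present in 1 of the 2 PCSK1 windows and upstream of CHGA and in neither PCSK2 window, and the PCSK1 window not printed held no core. In the printed PCSK1 window it began 77 bases before the start, with another core 49 bases before it, and in CHGA it began 54 bases before the start. Each PCSK2 window held a single core, 157 and 96 bases before its start. Over all 35116 windows of this length, 1.65% held the full element and 21.2% held a core on either strand. Of the 13 windows of the 8 member genes in the table, 2 held the full element and 5 held a core. CHGB and SCG2 had no window in the table. The PCSK2 windows had 22 and 26 CpG dinucleotides, that of CHGA 21 and both PCSK1 windows 10, where the median over all windows was 11 and the middle 50% ran from 3 to 23. These letters describe the windows and do not show binding, and DNA methylation was not measured on the arrays.

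PCSK2, the convertase that completes the maturation of glucagon, opioid and other peptides in granules, showed the widest separation of all members. Its signal was 5.20, 5.39 and 5.48 on the CTL arrays, 1.61, 1.81 and 1.19 on the KD3 arrays and 2.55, 2.77 and 1.45 on the KD4 arrays. Every knock-down array lay below every CTL array. The probe was well above background on all 3 CTL arrays and on none of the 6 knock-down arrays, so the knock-down level was not resolved. A floor was set on each array at the dimmest signal counted as well above background, or at the PCSK2 signal if brighter. With it PCSK2 was 7.98-fold lower in KD3 and 6.85-fold lower in KD4. The floor is not a strict upper limit, because dim signals are not strictly ordered, so the smallest possible difference can be less than these folds. Not well above background, PCSK1 read 3.22 on the second KD3 array and SCG2 3.46 on the third KD4 array. The dimmest signals counted as well above background there were 2.37 and 2.43. The measured means were 5.36 ± 0.142 in CTL, 1.54 ± 0.317 in KD3 and 2.26 ± 0.708 in KD4 (SD, n = 3). The array carries the PCSK2 probe on 2 spots, with a median log2 difference of 0.39 between them within an array, and neither spot was well above background on any knock-down array. Since the knock-down level was not resolved, no size is given within each slide. In bulk RNA, fewer PCSK2-expressing cells and less PCSK2 RNA per cell cannot be told apart.

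CHGB, chromogranin B, is a granule matrix protein. Its signal was 5.87, 5.78 and 5.92 in CTL, 4.69, 4.77 and 4.80 in KD3 and 4.55, 5.05 and 4.96 in KD4, with every knock-down array below every CTL array. The CHGB probe stayed well above background on all 9 arrays, so its difference has a size. On the log2 scale CHGB differed from CTL by -1.10 in KD3 and by -1.004 in KD4 (SE 0.124 for both), which is 46.7% and 49.9% of the CTL signal. Within the slides CHGB differed from CTL by -1.08 and -1.13 in KD3, and by -0.84 and -1.32 in KD4.

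**Figure D1:**
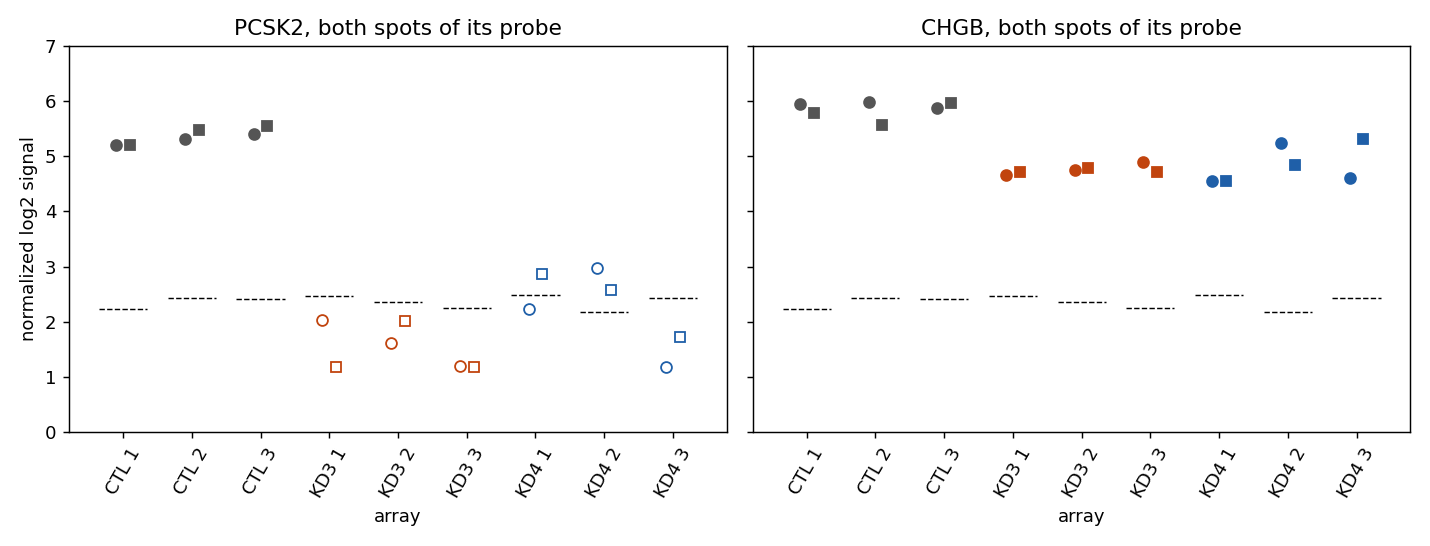
Normalized log2 signal (y axis) of the 2 spots of the PCSK2 and CHGB probes on each of the 9 arrays (x axis), as circles and squares. Filled symbols are spots well above background, open symbols are not, and dashed lines give the lowest signal well above background on each array. Both PCSK2 spots are filled on the 3 CTL arrays only, while both CHGB spots are filled throughout and lower on the 6 knock-down arrays.

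As a description, 2 of the 10 genes, PCSK2 and CHGB, were called lower in KD3, where 2.43% of the 26862 genes tested were called lower. The same 2 genes were called lower in KD4, where 3.53% of all genes were, and so in both, where 1.83% of all genes were. No member was called higher, where 1.24% of all genes were called higher in KD3 and 1.57% in KD4. The methods' t-test called both genes in KD3 and 0 members in KD4, and normexp background correction with an offset of 50 left 0 members called in either. PCSK2 entered the test through CTL alone, the group where it is high. Since the genes were proposed from these comparisons, nothing is read from their counts. KD3 and KD4 also share their CTL arrays.

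PCSK1, the convertase that makes the early cuts in proinsulin and proopiomelanocortin, was also lower on average and was not called. Its signal was 4.27, 4.79 and 5.23 in CTL, 4.13, 3.22 and 4.23 in KD3 and 3.57, 4.12 and 4.43 in KD4. The 3 KD3 arrays lay below all CTL arrays by a narrow margin for 1 pair, and the KD4 arrays overlapped with CTL. The mean difference was -0.90 in KD3 and -0.72 in KD4 (SE 0.343 for both). Within the slides the KD3 difference was -1.79 on slide 1, which holds a single KD3 array, and -0.08 on slide 2, which holds a single CTL array, so its size differed between slides. The probe was well above background on 8 of the 9 arrays, all but the second KD3 array.

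PCSK1N, which encodes proSAAS, was measured as 13.37, 13.59 and 13.22 in CTL, 12.99, 12.87 and 13.46 in KD3 and 13.26, 13.53 and 12.91 in KD4. The groups overlapped, and the differences of -0.29 and -0.16 (SE 0.197) were within the spread between arrays. No change was called for the inhibitor's transcript.

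CHGA, chromogranin A, the other granule matrix protein of this name, was not called. Its signal was 7.83, 7.86 and 7.66 in CTL, 8.03, 7.89 and 7.78 in KD3 and 8.16, 7.92 and 8.16 in KD4. KD3 overlapped with CTL at a difference of 0.12, and the 3 KD4 arrays lay above all CTL arrays with a difference of 0.30 (SE 0.102), a ratio of 1.23 that is under the fold threshold.

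SCG2, secretogranin II, the precursor of secretoneurin, was near background throughout. Its signal was 2.78, 3.17 and 3.75 in CTL, 3.48, 1.69 and 3.63 in KD3 and 2.80, 2.66 and 3.46 in KD4. The groups overlapped, and the probe was well above background on 3 CTL arrays, 1 KD3 array and no KD4 array. Its 2 spots differed by up to 1.94 on the log2 scale within an array, so these arrays could not resolve a difference of the size seen for CHGB.

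The convertases of the constitutive pathway had small differences. FURIN, the Golgi convertase that processes growth factor and receptor precursors, was 7.54, 7.57 and 7.59 in CTL, 7.62, 7.61 and 7.68 in KD3 and 7.81, 7.79 and 7.77 in KD4. Each knock-down array lay above every CTL array, and the differences were 0.07 in KD3 and 0.23 in KD4 (SE 0.0593), a ratio of 1.17 in KD4. FURIN thus had tight replicates and a shift far below the fold threshold.

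PCSK7, the most widely expressed and most distantly related of these convertases, had 2 tested probes. Probe A_32_P66974 read 8.41, 8.29 and 8.25 in CTL, 8.22, 8.51 and 8.52 in KD3 and 8.63, 8.59 and 8.72 in KD4. Probe A_23_P64214 read 6.17, 6.16 and 6.22 in CTL, 6.20, 6.40 and 6.35 in KD3 and 6.61, 6.33 and 6.38 in KD4. On both PCSK7 probes the KD4 arrays lay above all CTL arrays, by 0.33 and 0.25, and the KD3 arrays overlapped with CTL.

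PCSK6, also known as PACE4, and PCSK5 cleave TGF-beta family precursors and other secreted proteins. The PCSK6 probe A_23_P151907 differed by -0.07 in KD3 and -0.01 in KD4, and A_24_P189997, which the array assigns to another transcript, differed by 0.24 and 0.08. For the second probe the signals were 9.05, 9.09 and 9.24 in CTL, 9.30, 9.35 and 9.46 in KD3 and 9.13, 9.25 and 9.24 in KD4, so that KD3 lay above CTL without overlap and KD4 did not. The PCSK5 probe A_23_P257003 lay between 10.88 and 11.03 on all 9 arrays, with differences of 0.02 and 0.04, and A_33_P3358731 lay between 6.22 and 6.75, with differences of -0.02 and 0.17.

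**Figure D2:**
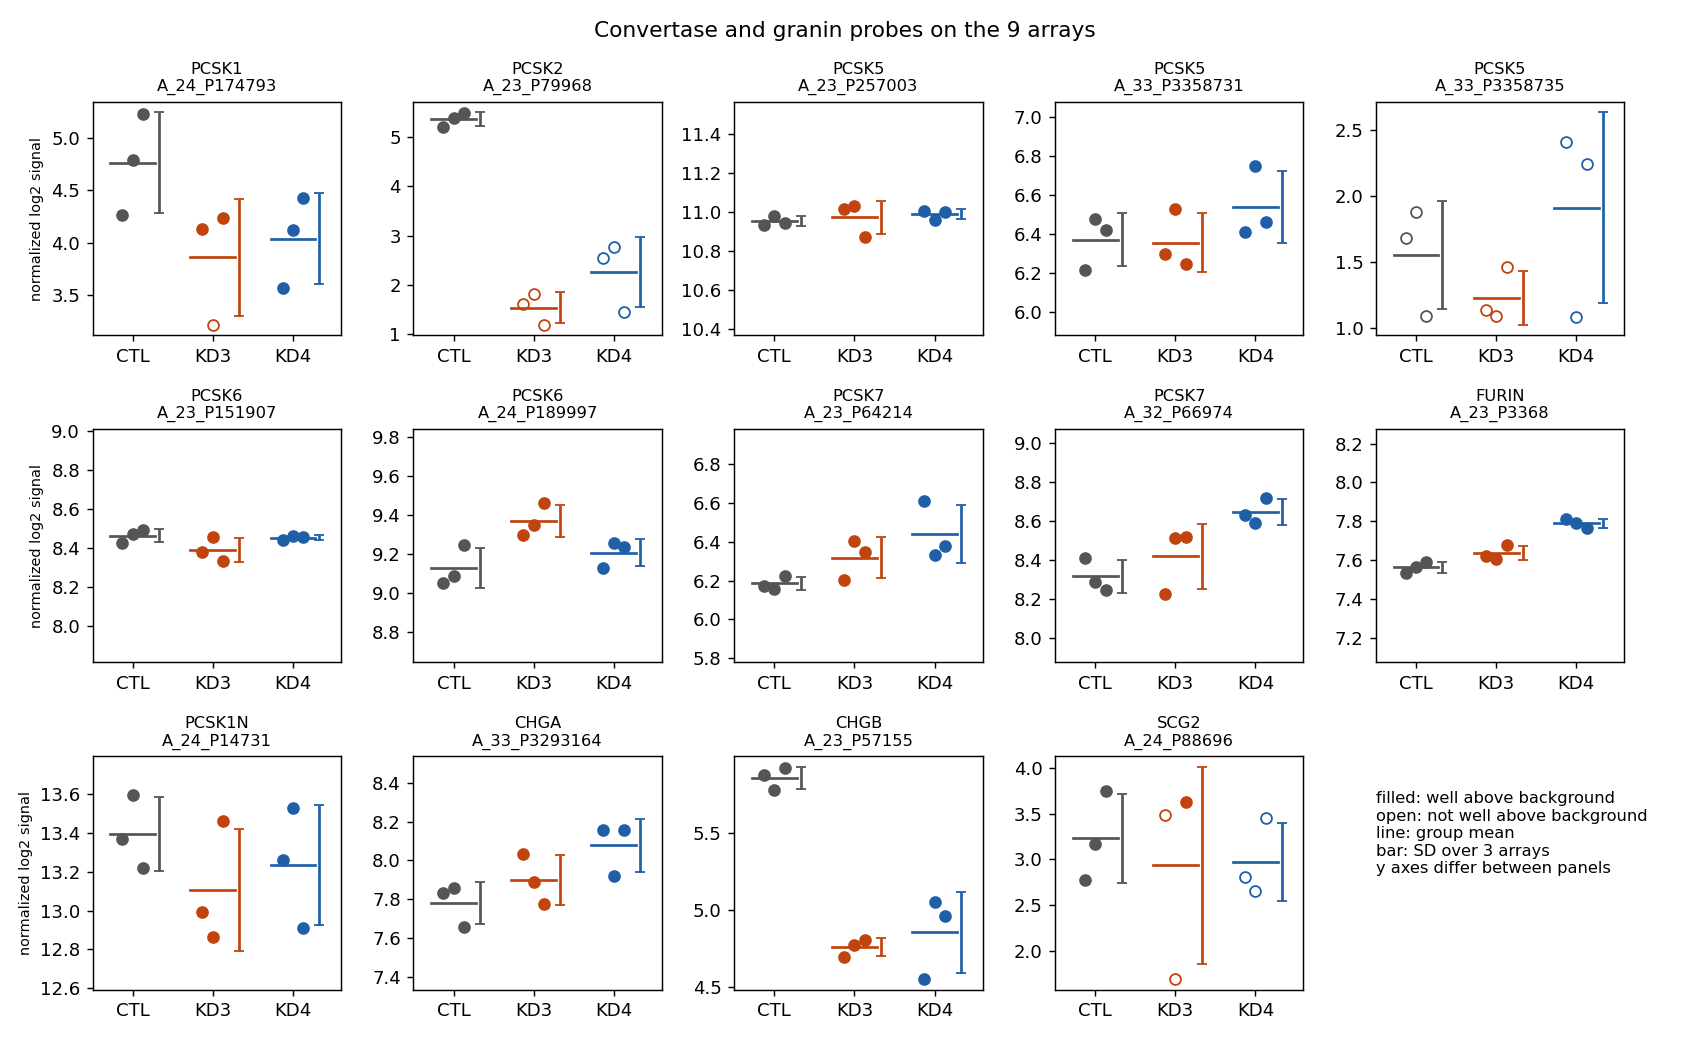
Normalized log2 signal (y axis, which differs between panels) of each of the 14 convertase and granin probes in CTL, KD3 and KD4 (x axis). Points are arrays, filled where well above background and open where not, lines are group means and bars are the SD over 3 arrays. PCSK2 and CHGB separate CTL from both knock-downs, while the PCSK5 and PCSK1N panels show overlapping groups.

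Over the 13 tested probes, KD3 lay without overlap below CTL for 3 (PCSK1, PCSK2 and CHGB) and above it for 2 (FURIN and a PCSK6 probe). KD4 lay without overlap below CTL for 2 (PCSK2 and CHGB) and above it for 4 (FURIN, both PCSK7 probes and CHGA). The share of all tested probes without overlap is not given here, so nothing is read from these counts. The 11 uncalled probes differed from CTL by -0.90 to 0.24 in KD3 and by -0.72 to 0.33 in KD4. On the brightest probe of each gene, the median difference of the 10 members was -0.13 in KD3 and -0.06 in KD4, beside 0.01 and 0.04 over all 26862 genes.

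The knock-downs were next compared with each other, a comparison on which the genes had not been proposed. Of the 10 members 0 were called between KD4 and KD3, where 0.503% of all genes were called in either direction, and the adjusted p from limma ran from 0.204 to 0.978. The methods' t-test, adjusted by Benjamini-Hochberg, called 0 as well. At an unadjusted p under 0.05, limma placed 3 members higher in KD4 than in KD3 (PCSK2, PCSK7 and FURIN) and 0 lower, and the methods' t-test placed 1 higher and 0 lower. For PCSK2 the probe was below the background criterion in both groups, so no difference is given and its place in that count has no weight. The share of all genes at that threshold is not given here, so nothing is read from the count. For CHGB, KD4 minus KD3 was 0.10 on the log2 scale (95% interval -0.19 to 0.38, limma adjusted p = 0.711), an interval that leaves out a difference as large as the fold threshold. For PCSK1 it was 0.18 (95% interval -0.60 to 0.96, limma adjusted p = 0.812), an interval too wide to do so. FURIN had the lowest adjusted p of the members, with KD4 above KD3 by 0.15 (95% interval 0.02 to 0.29, limma adjusted p = 0.204) and above it on all arrays. SMCHD1 itself had KD4 minus KD3 differences of -0.51 to -0.56 on its 3 probes, with adjusted p from limma of 0.0141, 0.0195 and 0.0902.

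**Figure D3:**
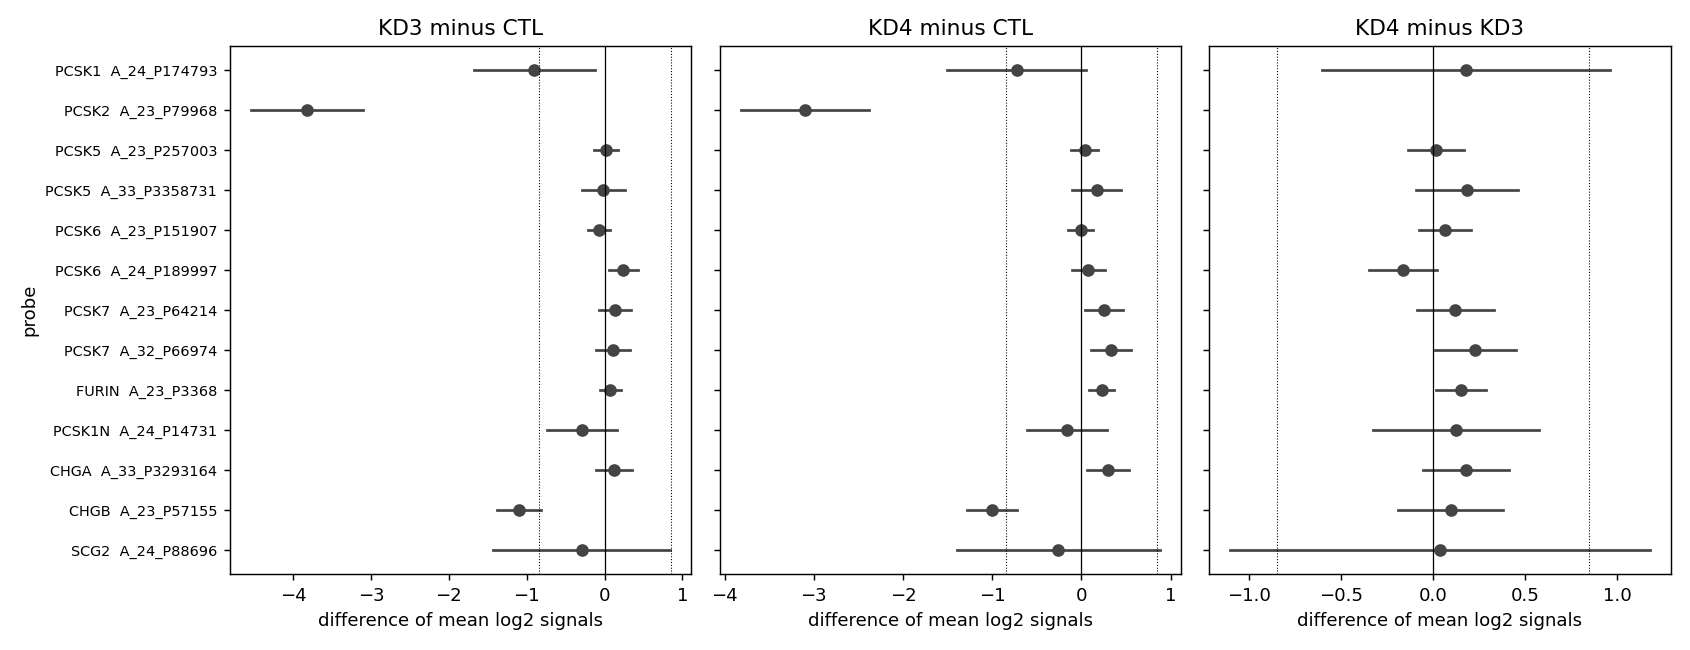
Difference of mean log2 signals (x axis) for each tested convertase and granin probe (y axis) in KD3 minus CTL, KD4 minus CTL and KD4 minus KD3, with 95% intervals from limma as bars. Dotted lines mark the fold threshold of 1.8, and PCSK2 is left out of the third panel because it was not well above background in either knock-down. PCSK2, whose points in the comparisons with CTL are measured values below background in the knock-downs, and CHGB lie left of the dotted line in both, and no probe is called in the third panel.

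Further genes of the secretory pathway were read from 5 lists, written with earlier results of these data known, of which 128 of 130 genes had a probe and 107 were tested. Comparisons of the listed genes with CTL, p-values included, are therefore a description from which nothing is inferred. In both knock-downs 7 of these genes fell (RAB26, CPLX1, GAL, CALCA, BDNF, ITGA4 and LAMA1) and 1 rose (RCOR1), beside 2.65% of all genes called in the same direction in both. The methods' t-test called 2 of these 8 in both, CALCA and CPLX1. With limma KD3 had 2 listed genes called higher and 9 called lower, beside 1.24% and 2.43% of all genes, and KD4 had 2 and 14, beside 1.57% and 3.53%. The methods' t-test called 1 higher and 4 lower in KD3, and 0 higher and 8 lower in KD4. The median difference on the brightest probe of each listed gene was -0.14 in KD3 and -0.13 in KD4, beside 0.01 and 0.04 over all genes.

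Among partners of the convertases and related enzymes, such as SCG5, the chaperone of PCSK2, and CPE, the carboxypeptidase that trims the cut peptides, 0 of 12 tested genes were called in either knock-down. At an unadjusted p under 0.05, limma placed 4 lower and 0 higher in KD3 and 4 lower and 1 higher in KD4. The methods' t-test called 0 as well and placed 2 lower and 0 higher in each. The share of all genes at an unadjusted p under 0.05 is not given here, so nothing is read from these unadjusted counts. Differences of all their probes lay between -0.48 and 0.14 in KD3 and between -0.58 and 0.25 in KD4. SCG5 is named after its values were seen. It read 6.68, 6.95 and 7.04 in CTL, 6.92, 6.77 and 6.64 in KD3 and 6.43, 6.21 and 6.29 in KD4, which is -0.11 in KD3 (limma adjusted p = 0.552) and -0.58 in KD4 (limma adjusted p = 0.00655, under the fold threshold).

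Of 30 tested genes of granule biogenesis and exocytosis, limma called 3 lower in KD3 and 3 in KD4, beside 2.43% and 3.53% of all genes. It called 0 of this list higher, beside 1.24% and 1.57% of all genes. At an unadjusted p under 0.05 limma placed 17 lower and 0 higher in KD3 and 15 lower and 3 higher in KD4, and the methods' t-test 13 and 0 in KD3 and 13 and 2 in KD4. Without the share of all genes at that threshold beside them, these unadjusted counts are a description and not a result about the list. RAB26, a small GTPase of secretory vesicles, read 11.63, 11.99 and 11.91 in CTL, 10.70, 10.65 and 10.51 in KD3 and 10.77, 10.83 and 10.72 in KD4. RAB26 fell by 1.22 in KD3 (limma adjusted p = 0.000135) and by 1.07 in KD4 (adjusted p = 0.000215). CPLX1, a complexin that binds the assembled fusion complex, fell by 1.23 in KD3 (limma adjusted p = 0.000267) and by 0.92 in KD4 (adjusted p = 0.000879). The calls in a single knock-down, RAB3C in KD3 and RIMS2 in KD4, are named after their values were seen. The median difference of this list was -0.26 in KD3 and -0.12 in KD4. SYT4, a synaptotagmin of dense-core granules, read 5.84, 5.88 and 5.87 in CTL, 5.54, 4.81 and 4.82 in KD3 and 6.10, 6.04 and 5.84 in KD4. SYT4 was higher in KD4 than in KD3 by 0.94 (limma adjusted p = 0.0363).

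Tested precursors of hormones and neuropeptides, the substrates of PCSK1 and PCSK2, numbered 21. Of these, 3 were called lower by limma in both knock-downs, beside 1.83% of all genes. GAL, the galanin precursor, read 12.74, 12.58 and 12.57 in CTL, 10.99 to 11.01 in KD3 and 10.48 to 10.52 in KD4. GAL fell by 1.63 in KD3 (limma adjusted p = 5.43e-06) and by 2.13 in KD4 (adjusted p = 8.41e-07), so that its replicates were far tighter than the differences. CALCA, which gives calcitonin or calcitonin gene-related peptide by alternative splicing, read 8.27, 8.40 and 8.44 in CTL, 5.31, 5.02 and 5.07 in KD3 and 6.94, 6.79 and 6.67 in KD4 on probe A_24_P198178. On that probe CALCA fell by 3.24 in KD3 (limma adjusted p = 2.33e-06) and by 1.57 in KD4 (adjusted p = 3.55e-05). The CALCA probe A_23_P301846, assigned to another transcript, differed by 0.37 and 0.95 and was not called, so the probes of this gene disagreed in sign. BDNF, a neurotrophin precursor, fell on probe A_32_P7316 by 0.93 in KD3 (limma adjusted p = 0.00995) and by 1.13 in KD4 (adjusted p = 0.00306), and on its other probe was called in KD3 only, with differences of -0.86 and -0.74. NTS, the neurotensin precursor, read 7.93, 7.99 and 7.89 in CTL, 8.98, 8.79 and 8.88 in KD3 and 7.87, 7.99 and 7.84 in KD4. It rose in KD3 by 0.95 (limma adjusted p = 0.000116) and differed by -0.03 in KD4 (limma adjusted p = 0.783). Called in KD4 alone were CCK, higher, and GRP, lower, both named after their values were seen.

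Of 34 tested substrates of the constitutive convertases, limma called 3 lower in KD3 and 5 in KD4, beside 2.43% and 3.53% of all genes. It called 0 of the substrates higher, beside 1.24% and 1.57% of all genes. At an unadjusted p under 0.05 limma placed 18 lower and 5 higher in KD3 and 18 lower and 4 higher in KD4, and the methods' t-test 14 and 4 in KD3 and 18 and 1 in KD4. Here too the share of all genes at that threshold is not given, and nothing is read from these counts. ITGA4, the integrin alpha 4 subunit, fell on all 3 of its probes in both knock-downs. On probe A_33_P3353816, well above background on every array, ITGA4 read 7.84, 7.96 and 7.76 in CTL, 5.86, 5.47 and 5.43 in KD3 and 4.60, 4.89 and 4.78 in KD4. It fell by 2.26 in KD3 (limma adjusted p = 1.92e-05) and by 3.09 in KD4 (adjusted p = 3.29e-06). LAMA1, the laminin alpha 1 chain, fell on both probes, by 0.90 and 1.02 in KD3 and by 1.22 and 1.16 in KD4 (adjusted p from limma at most 0.000503). The calls in a single knock-down, IGF2 in KD3 and GDF15, FGF23 and FBN1 in KD4, were lower and are named after their values were seen.

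Of 10 tested regulators of neuroendocrine genes, limma called RCOR1 in both knock-downs, beside 2.65% of all genes called in the same direction in both. The methods' t-test called RCOR1 in neither. RCOR1, a corepressor that the repressor REST recruits, read 10.05, 10.45 and 9.98 in CTL, 11.36, 11.22 and 11.11 in KD3 and 11.26, 11.12 and 11.21 in KD4. RCOR1 rose by 1.07 in KD3 (limma adjusted p = 0.000777) and by 1.04 in KD4 (adjusted p = 0.000721). REST, which represses neuronal genes outside neurons, granins among them, and is named after its values were seen, read 7.79, 7.96 and 7.80 in CTL, 8.44, 8.42 and 8.32 in KD3 and 8.31, 8.19 and 8.31 in KD4. The REST differences of 0.55 in KD3 (limma adjusted p = 0.00173) and 0.42 in KD4 (limma adjusted p = 0.0043) passed the p-value and not the fold threshold. INSM1 and PAX6, also named after their values were seen, were called lower in KD4 alone. PAX6 was called on its dimmest probe, with a KD4 difference of -0.98, while its other 2 probes differed by -0.10 and -0.17 and were not called. The part of these regulators in the values of PCSK2 and CHGB was not tested.

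**Figure D4:**
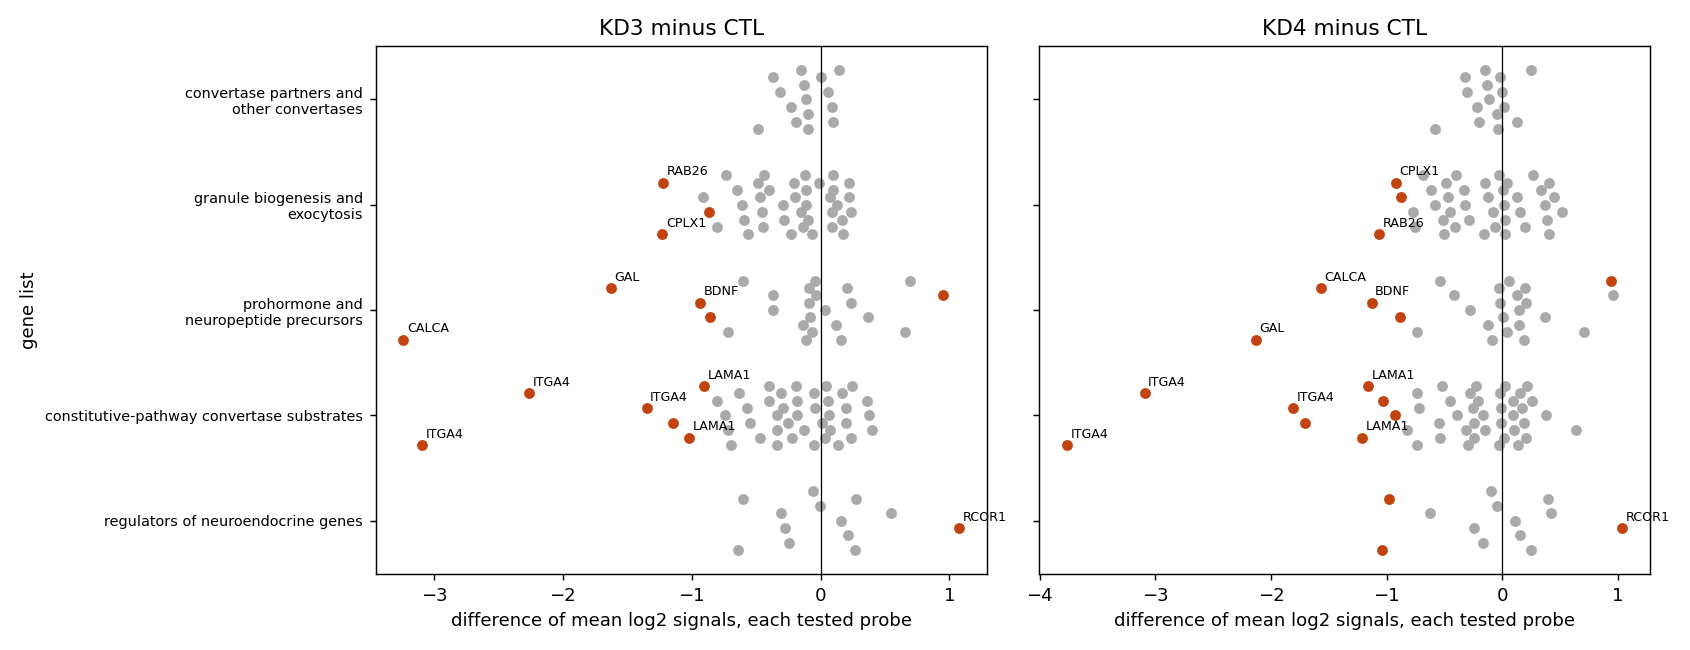
Difference of mean log2 signals (x axis) of every tested probe in the 5 secretory-pathway lists (y axis), for KD3 minus CTL and KD4 minus CTL, with called probes in orange and genes called in both knock-downs named. The list of convertase partners has no called probe, and RCOR1 is the gene called higher in both. The lowest ITGA4 point in each panel is a probe not well above background in that knock-down.

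Marker genes of the line and of other cell types were set beside these values. Over all genes, limma called 2.43% lower in KD3, 3.53% lower in KD4 and 1.83% lower in both, the shares to hold beside the marker calls. Of the 6 neuroendocrine markers, limma called 2 lower in KD3 (SYP and ENO2) and 1 lower in KD4 (INSM1), and the methods' t-test called 0 and 1. SYP, a vesicle membrane protein, differed by -1.27 in KD3 and -0.68 in KD4 (limma adjusted p = 0.00383 and 0.0401), ENO2, the neuronal enolase, by -0.90 and -0.69 (limma adjusted p = 0.000597 and 0.00161), and INSM1, a neuroendocrine transcription factor, by -0.60 and -1.04 (limma adjusted p = 0.00187 and 9.11e-05). The summed signal of this list, nearly all of it from UCHL1, was 17.11 to 17.30 in CTL, 17.10 to 17.24 in KD3 and 17.28 to 17.35 in KD4 on the log2 scale, and does not show these differences. DDC, UCHL1 and NCAM1 were not called. DDC differed by -0.40 in KD3 and -0.10 in KD4, and UCHL1 by -0.03 and 0.09. The NCAM1 probe A_33_P3363804 was higher, by 0.54 and 0.47 (limma adjusted p = 0.0316 and 0.0418). Its probe A_23_P1740 differed by 0.27 and -0.06, and A_33_P3363799 by -0.20 and -0.20.

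Of the 10 HEK293 markers, PAX2 and NEFM were called lower by limma in both knock-downs, and the methods' t-test called 1 in each. PAX2, a kidney transcription factor, fell by 2.41 and 2.65 on probe A_33_P3343066 (limma adjusted p = 2.33e-06 and 5.57e-07) and differed by -0.01 and 0.06 on its other probe, and NEFM, a neurofilament subunit, fell by 1.21 and 1.24 (limma adjusted p = 0.00305 and 0.002). The list, dominated by VIM, summed to 17.28 to 17.38 in CTL, 17.14 to 17.29 in KD3 and 17.35 to 17.38 in KD4. The sympathetic neuroblastoma list summed to 10.75 to 10.84 in CTL and was lower in KD3, at 10.39 to 10.46, and KD4, at 10.39 to 10.54, and of its 3 tested genes HAND2 was called lower by limma in both. The fibroblast list, with COL1A2 and COL3A1 well above background on no array, summed to 9.48 to 9.72, 9.16 to 9.29 and 9.53 to 9.63, with KD3 below CTL, and of its 4 tested genes PDGFRB, not well above background on any knock-down array, was called lower in both. The blood list, with HBB above background on none, summed to 7.83 to 8.12 in CTL, 7.86 to 7.94 in KD3 and up to 8.24 in KD4, and of its 3 tested genes 0 were called or had an unadjusted p under 0.05 by limma, while the methods' t-test called 0 and placed 1 lower in KD3 at an unadjusted p under 0.05. The part of these markers in the PCSK2 and CHGB values was not tested.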

How the data were processed

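RNA of HEK293 cells with shRNA 3, shRNA 4 or the control shRNA NC5 was measured on 9 arrays. The authors deposited the spot intensity of each array from Agilent Feature Extraction (10.10 in the submitters' processing notes, 10.10.1.1 per the file headers), background-subtracted by the scanner software. The authors also deposited log2 values, quantile normalized in GeneSpring (the methods print "quintile"), which served as an alternative and differed from the values here by a median of -0.08.

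Control spots and outlier spots (260 to 634 of 58717 per array) were left out. Quantile normalization of the log2 processed signals used limma 3.58.1 (R 4.3.3), replicate spots were averaged per probe, and 21 of 42405 probes were dropped for a missing value. A probe counted as well above background on an array when at least 50% of its spots were. Accessions named 25422 probes through a RefSeq gene table of GRCh38.p14 (the array design predates that build). The fit (lmFit, eBayes, a mean per group, all 9 arrays) ran on 32276 probes. It was tested on simulated data.

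The members and gene lists were chosen with earlier results of these data known. Named genes were all members, listed genes called in the same direction in both knock-downs, listed genes called between the knock-downs, and SMCHD1. Alternatives were 75th percentile scaling, normexp with an offset of 50, the authors' table, dim probes kept or filtered more strictly, the methods' t-test, fits on 2 groups, replicate number or slide as a block, no fold threshold, the brightest probe, and leaving out each array. The number of arrays limits the precision. The study's other assays and its SH-SY5Y cells were not analysed here, and 1 listed marker gene is not reported here.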

Additional observations from a re-analysis of the deposited data

Results flagged for a closer look

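In 3 genes of the secretory-pathway lists the effects of the 2 shRNAs differed from each other, by the direct limma comparison of KD4 with KD3. SYT4 was higher in KD4 than in KD3 by 0.94 on the log2 scale (95% interval 0.52 to 1.35, limma adjusted p = 0.0363), with all 3 KD4 arrays above all KD3 arrays. NTS had a KD4 minus KD3 difference of -0.98 (95% interval -1.16 to -0.81, limma adjusted p = 0.000923), with all KD4 arrays below all KD3 arrays. CALCA had a difference of 1.66 on probe A_24_P198178 (95% interval 1.42 to 1.90, limma adjusted p = 0.000325), with all KD4 arrays above all KD3 arrays, and 0.59 on probe A_23_P301846 (limma adjusted p = 0.37). No convertase or granin gene was among them. By the methods' t-test, adjusted by Benjamini-Hochberg, 0 genes of the lists were called in this comparison, and at an unadjusted p under 0.05 that test placed 10 higher and 14 lower. These unadjusted counts have no share of all genes beside them and are not read further.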

How the results depend on the processing

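With PCSK2 and CHGB called, the count of members was 2 in KD3, 2 in KD4 and 2 in both, and it was 2, 2 and 2 as well with 75th percentile scaling, the authors' log2 values, no filter on dim probes, fits on 2 groups, the slide as a block and the brightest probe. With normexp and an offset of 50 the counts were 0, 0 and 0. The differences kept their sign there, at -0.75 and -0.68 for PCSK2 and -0.49 and -0.40 for CHGB, smaller by construction because the offset is added to dim signals. With probes above background on all 9 arrays alone they were 1, 1 and 1, since PCSK2 is then not tested. The methods' t-test, adjusted by Benjamini-Hochberg, gave 2, 0 and 0 and moved the pathway genes called in both knock-downs from 8 to 2 (CALCA and CPLX1). The cause was not tested. Without the fold threshold, 4 members were called in KD4, 2 lower and 2 higher, and 35 pathway genes in both knock-downs. The share of all genes called without that threshold is not given here, so nothing is read from these counts. Leaving out each array gave 2 to 2 members in each comparison with CTL, 0 to 1 between KD4 and KD3, and 7 to 9 pathway genes. The 1 is PCSK2 without KD4 replicate 3, where neither group is above background. With the replicate number as a block, the counts were 2, 2, 2, 0 and 8, so that no count moved. The labels do not say that equal replicate numbers were paired. Deviations of arrays with the same number correlated at -0.078 to 0.143, and 5 of 9 arrays correlated best with their own number. Whether that exceeds what unpaired arrays would give was not tested. Of 693 member values under the alternatives, 675 moved by less than the spread between replicates, 18 by more and 0 reversed among called values. Most of these outcomes were fixed in advance, so the tally is no measure of stability. The probe filters, the t-test, the fits on 2 groups and the replicate block leave a log2 difference unchanged. Leaving out an array of 3 cannot move it by more than that spread. The scaling, normexp, the authors' table and the slide block could. Under the other alternatives 6 to 9 pathway genes were called in both. PCSK2 and SCG2 in the knock-downs are limited by signal over background.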

Other observations

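PCSK2 and CHGB both lie on chromosome 20, and the 3 protein-coding genes on either side of each were looked up after the values of PCSK2 and CHGB were seen. Around PCSK2 these are KIF16B, SNRPB2 and OTOR on one flank and BFSP1, DSTN and RRBP1 on the other, and around CHGB they are PROKR2, GPCPD1 and SHLD1, and TRMT6, MCM8 and CRLS1. OTOR, an inner ear protein, had no array well above background and was not tested. Of the 11 tested neighbours, 0 passed both the adjusted p and the fold threshold in KD3 or KD4 by limma or by the methods' t-test, and at an unadjusted p under 0.05 limma placed 8 apart from CTL in KD3 and 6 in KD4, and the t-test 6 and 2. The share of all genes at that unadjusted threshold is not given here, so nothing is read from these counts. The lowest difference in KD3 was -0.53 for RRBP1 (limma adjusted p = 0.0174), a ribosome-binding protein of the endoplasmic reticulum, and the highest was 0.45 for GPCPD1 (limma adjusted p = 0.00887). In KD4 they ran from -0.37 for a KIF16B probe (limma adjusted p = 0.0234) to 0.31 for a SHLD1 probe (limma adjusted p = 0.0254).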
